A study of Mus musculus with 12 samples.

Results

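The immunoglobulin genes of the mouse aorta were followed here, from the constant regions that set the antibody class to the variable segments that shape the binding site. Members were taken by name (Ighv, Igkv, Iglv, Ighg and Iglc genes, Ighm, Ighd, Igha, Ighe, Igkc and Jchain), with at least 20 counts summed over the 12 libraries. The members were thus chosen by name and by their summed counts over all libraries, and 201 of 22183 genes in the table met the rule. They comprised 93 heavy-chain variable (V) genes, 92 kappa V genes, 3 lambda V genes, 8 heavy-chain constant genes, 1 kappa constant gene, 3 lambda constant genes and Jchain. Another 29 genes with fitting names fell below the minimum. Just inside it lay Ighv5-2 with 20 counts and Ighv1-49 with 21, and just outside lay Ighv2-7 with 16 and Ighv3-3 with 13.

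Bulk mRNA was sequenced from whole aortas, ascending part to iliac bifurcation, of male mice without apolipoprotein E (APOE-/-), a genotype that all groups shared, controls included. The mice entered the study at 8 weeks of age and fell into 3 groups of 4 libraries. The NFD group received a normal fat diet (5% fat, no added cholesterol) with saline, while HFD mice ate a high fat diet (16% fat, 0.25% cholesterol) with saline. The HFD+TUDCA group ate the high fat diet and, after its first 8 weeks, received tauroursodeoxycholic acid (TUDCA), a bile acid used as a chemical chaperone, at 1000 mg/kg per day by gavage for 4 weeks. Whether libraries stem from separate animals is not stated, and p-values measure only the spread between these libraries, which may be technical. Libraries held 15199312 to 22061687 counts. Levels are given in CPM, the TMM-scaled counts per 1e6 counts. A gene with 0 counts could have had up to 0.136 to 0.197 counts per 1e6, depending on the library. This limit was taken without TMM scaling and covers counting error only.

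Antibodies are built from paired heavy and light chains. Each B cell joins a V gene segment to short joining segments and expresses it with a constant region. Resting B cells carry IgM and IgD in the membrane, while plasma cells pour out secreted antibody and hold very large amounts of its mRNA. In atherosclerosis-prone mice, B cells and plasma cells gather in the outer wall of the aorta, and IgM against oxidised lipids has long been studied there. In bulk tissue, more cells of a type and more RNA per cell cannot be told apart.

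Sequences are given from the GENCODE M21 annotation on GRCm38, 5′ to 3′. Ighm lies on chromosome 12 (113418558 to 113422730, minus strand) and makes a secreted and a membrane form of the IgM heavy chain, on which a result below turns. Both share 1305 coding bases and then part. In each of the next lines the last 30 shared bases are in lower case, and capitals mark each form's own coding end, 62 bases for the secreted form (Ighm-201) and 125 for the membrane form (Ighm-202).
Ighm-201: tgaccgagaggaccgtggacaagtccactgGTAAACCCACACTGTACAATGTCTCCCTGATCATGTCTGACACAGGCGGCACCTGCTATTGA
Ighm-202: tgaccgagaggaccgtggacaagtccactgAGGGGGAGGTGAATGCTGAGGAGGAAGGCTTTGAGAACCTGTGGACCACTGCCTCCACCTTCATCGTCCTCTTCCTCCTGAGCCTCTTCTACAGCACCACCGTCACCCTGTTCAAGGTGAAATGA

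The next pair are V genes called higher than in NFD in both high-fat groups, shown because Igkv4-55 had the lowest p of HFD+TUDCA against NFD and Ighv1-53 the next. Igkv4-55 lies on chromosome 6 (69607275 to 69607828, minus strand) and Ighv1-53 on chromosome 12 (115158403 to 115158835, minus strand). The last 290 bases of each transcript are shown. Capitals run from the codon of the second conserved cysteine to the end, where the V segment enters the third complementarity-determining loop.
Igkv4-55: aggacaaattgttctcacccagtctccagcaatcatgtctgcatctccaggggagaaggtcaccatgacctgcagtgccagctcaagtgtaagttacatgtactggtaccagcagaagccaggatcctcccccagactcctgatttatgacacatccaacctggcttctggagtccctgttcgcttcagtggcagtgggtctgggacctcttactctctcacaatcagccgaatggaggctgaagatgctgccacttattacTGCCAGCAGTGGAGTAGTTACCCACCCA
Ighv1-53: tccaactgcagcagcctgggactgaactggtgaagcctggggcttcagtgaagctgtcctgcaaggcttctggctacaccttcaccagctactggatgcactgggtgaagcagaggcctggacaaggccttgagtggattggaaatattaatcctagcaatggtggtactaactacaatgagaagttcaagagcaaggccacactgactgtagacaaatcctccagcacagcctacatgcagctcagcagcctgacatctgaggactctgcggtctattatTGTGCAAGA

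Igkv6-13 (chromosome 6, 70457501 to 70458036, minus strand) and Ighv14-4 (chromosome 12, 114176438 to 114176867, minus strand) held the largest shares of a single library's kappa and heavy V counts that are described further on for HFD+TUDCA replicate 4. Capitals have the same meaning.
Igkv6-13: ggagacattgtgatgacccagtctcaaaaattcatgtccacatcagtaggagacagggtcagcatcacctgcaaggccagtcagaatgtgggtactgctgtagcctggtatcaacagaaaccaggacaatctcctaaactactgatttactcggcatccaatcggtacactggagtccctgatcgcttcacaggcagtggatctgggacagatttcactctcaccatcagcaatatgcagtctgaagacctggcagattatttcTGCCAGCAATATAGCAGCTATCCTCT
Ighv14-4: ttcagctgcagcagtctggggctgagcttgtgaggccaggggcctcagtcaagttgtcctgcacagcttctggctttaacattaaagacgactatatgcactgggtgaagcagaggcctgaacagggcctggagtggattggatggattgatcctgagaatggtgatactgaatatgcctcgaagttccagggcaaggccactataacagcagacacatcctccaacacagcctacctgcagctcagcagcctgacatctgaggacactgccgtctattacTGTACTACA

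Iglv1 (chromosome 16, 19085017 to 19085500, minus strand) and Iglv2 (chromosome 16, 19260401 to 19260859, minus strand) are shown because close copies limit how surely reads can be told apart. They share 283 of 290 bases, and capitals mark the differing bases.
Iglv1: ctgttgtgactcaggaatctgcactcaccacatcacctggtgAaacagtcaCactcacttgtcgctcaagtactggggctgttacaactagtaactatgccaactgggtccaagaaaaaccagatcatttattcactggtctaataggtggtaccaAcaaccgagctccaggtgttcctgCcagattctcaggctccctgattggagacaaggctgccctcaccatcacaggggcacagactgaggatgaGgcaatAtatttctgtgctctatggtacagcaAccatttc
Iglv2: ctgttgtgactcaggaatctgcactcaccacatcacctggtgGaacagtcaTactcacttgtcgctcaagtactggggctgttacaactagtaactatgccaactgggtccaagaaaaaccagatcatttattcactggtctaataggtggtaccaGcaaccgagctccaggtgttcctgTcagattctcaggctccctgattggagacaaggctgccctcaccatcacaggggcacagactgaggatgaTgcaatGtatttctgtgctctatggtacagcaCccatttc

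Close copies were common among the genes that carried the results. Igkv3-5 matched Igkv3-10 at 285 of 290 bases, Ighv14-4 matched Ighv14-1 at 282, Ighv1-80 matched Ighv1-82 at 279, Ighv1-53 matched Ighv1-72 at 278 and Igkv4-55 matched Igkv4-71 at 277. For 99 of the 201 genes the deposited value was not a whole number in at least 1 library, as happens where reads are divided between genes. Igkv4-55 was not whole in 11 libraries and Igkv3-5 in 9. Levels of single V genes with such copies are therefore uncertain, and expressed V segments also carry mutations that the germline sequence does not.

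Immunoglobulin transcripts were more abundant in every HFD library than in any NFD library. All 201 genes together held 2958, 3977, 2258 and 2435 CPM in NFD replicates 1 to 4. They held 8294, 25120, 4362 and 20920 CPM in HFD, and 9581, 11380, 12330 and 1892 CPM in HFD+TUDCA. Replicates 2 and 4 stood far above replicates 1 and 3 in HFD, and HFD+TUDCA replicate 4 lay below all 4 NFD libraries. Levels within NFD thus differed less than within either high-fat group. Over all genes, HFD+TUDCA replicate 4 correlated with the other libraries of its group at 0.855 to 0.917. Correlations between replicates were 0.957 to 0.981 in NFD and 0.923 to 0.952 in HFD.

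Of the 201 genes, 153 passed the low-count filter of the comparison of HFD with NFD, and 41 rose while 0 fell at an edgeR adjusted p under 0.05. DESeq2, with its own filter, called 90 of 186, against 10.3% of all genes. Over all 14918 genes tested, edgeR called 4.83%, 3.18% higher and 1.64% lower. The log2 fold change was positive for 146 of the 153 and negative for 7, where 53.9% of all genes were positive, with a median of 2.33 against 0.04 over all genes. A gene that passed the filter only through the group where it was high had to differ, so these counts describe the filtered genes and not all 201. The libraries did not overlap for 50 genes, all higher in HFD, against 8.12% of all genes higher and 6.82% lower. Among the called genes were 2 of 7 tested heavy constant genes, the kappa constant gene, 17 of 66 heavy V genes and 21 of 72 kappa V genes, and none of 3 lambda constant genes, 3 lambda V genes or Jchain. Leaving out 1 library moved the number of called genes between 7 (without NFD replicate 3) and 77 (without HFD replicate 3), with 9 when NFD replicate 1 or 4 was left out, 25 for NFD replicate 2 and 28 for HFD replicate 1. The counts over all genes in these fits are not given here. Whether calls moved over the whole table as well can therefore not be read from them.

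**Figure D1:**
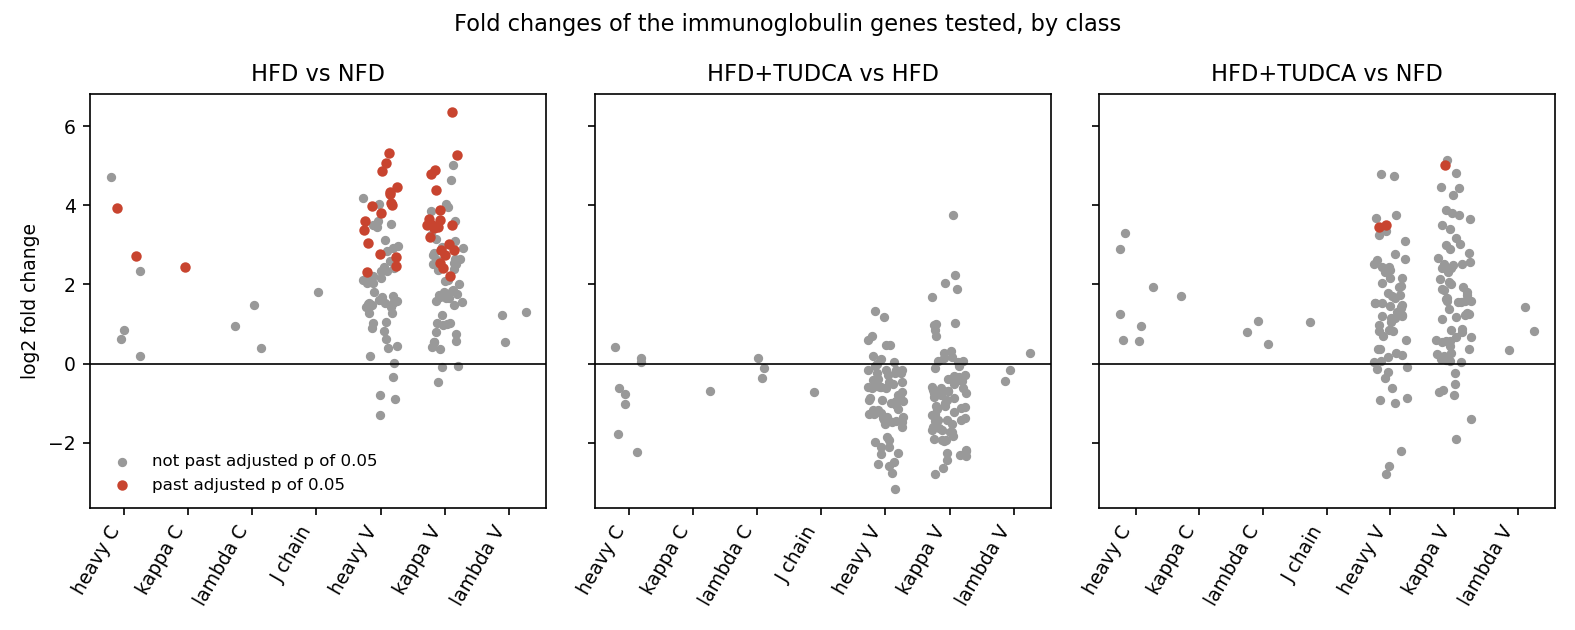
Log2 fold change (vertical axis) of each immunoglobulin gene that passed the filter, by class, in the 3 comparisons. Red points mark genes at an edgeR adjusted p under 0.05. Red points are frequent in HFD against NFD (41 of 153), number 3 of 150 in HFD+TUDCA against NFD, and are absent in HFD+TUDCA against HFD (0 of 163).

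Ighm, which encodes the IgM heavy chain, rose. It stood at 889.3, 1122, 657.9 and 669.0 CPM in NFD. HFD libraries held 1870, 9593, 1826 and 8919 CPM, and HFD+TUDCA libraries 2461, 4325, 4982 and 896.4 CPM. No HFD library reached down to the NFD range, whereas HFD+TUDCA replicate 4 lay inside the NFD range. The log2 fold change of HFD over NFD was 2.73 ± 0.59 (SE), a 6.63-fold difference with an edgeR adjusted p of 0.0344. In fits that left out 1 library, Ighm missed the threshold without NFD replicate 1, 2, 3 or 4 or HFD replicate 4 (log2 fold changes 2.38 to 2.92, edgeR adjusted p up to 0.118).

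Ighd, the IgD heavy chain that resting B cells co-express with IgM from the same primary transcript, did not follow Ighm. NFD libraries held 187.0, 179.2, 144.6 and 135.0 CPM. The HFD libraries stood at 81.6, 281.8, 32.85 and 347.7 CPM, on both sides of the NFD range, and the HFD+TUDCA libraries at 268.7, 389.8, 279.6 and 23.84 CPM. Its log2 fold change of HFD over NFD was 0.20, with an edgeR adjusted p of 0.888.

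Ighd relative to Ighm separated NFD from every high-fat library. The ratio of their CPM was 0.211, 0.160, 0.220 and 0.202 in NFD. It was 0.0439, 0.0294, 0.0183 and 0.0390 in HFD, and 0.109, 0.0902, 0.0562 and 0.0271 in HFD+TUDCA. No library of either high-fat group reached the NFD range, and HFD+TUDCA overlapped HFD only through replicate 4. The log2 ratio was lower by 2.67 in HFD than in NFD (log2 difference -2.67, exact permutation p = 0.0286, two-sided, 0.0686 after Benjamini-Hochberg adjustment over 12 ratio tests), where 0.0286 is the smallest p that 4 against 4 libraries can give. HFD+TUDCA differed from NFD by -1.66 (exact permutation p = 0.0286, adjusted 0.0686) and from HFD by 1.01 (exact permutation p = 0.143, adjusted 0.171). None of the 12 ratio tests passed after adjustment.

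The balance of the 2 Ighm forms moved the same way. The share of the membrane form was read from the transcript length implied by each library's counts and length-scaled values (FPKM), between 1493 bases for the secreted and 1698 for the membrane form. It came to 34.7, 29.7, 38.4 and 37.7% of Ighm transcripts in NFD. HFD libraries held 9.72, 9.22, 7.97 and 11.1%, and HFD+TUDCA libraries 22.4, 17.1, 12.5 and 10.02%. All HFD and HFD+TUDCA libraries lay below all NFD libraries, with group means of 35.1% ± 3.93 (SD, n = 4) in NFD, 9.51% ± 1.30 in HFD and 15.5% ± 5.44 in HFD+TUDCA.

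The difference of HFD from NFD was -25.6 percentage points (exact permutation p = 0.0286, two-sided, 0.0429 after adjustment over the 3 group pairs). HFD+TUDCA differed from NFD by -19.6 points (exact permutation p = 0.0286, adjusted 0.0429). HFD+TUDCA stood 5.99 points above HFD (exact permutation p = 0.0571, adjusted 0.0571), with only replicate 4 inside the HFD range. This measure was chosen after values had been seen, assumes that FPKM was divided by the abundance-weighted transcript length, and rests on the authors' division of reads between forms. In a check, 97.9% of 14624 values from 1591 single-transcript genes, and 100% for 120 immunoglobulin genes, gave the annotated length within 1%. Genes with a single transcript have no second form to weight. The check therefore covers the annotated lengths and cannot test the assumption for Ighm. The adjustment covered Ighm alone. The share of the longer form was read the same way for other heavy constant genes, with no test, and did not follow Ighm. For Ighg3 it was higher in HFD (2.48 to 2.73%) than in NFD (0.714 to 1.92%). Ranges in NFD and HFD overlapped for Ighd (74.1 to 82.6% and 64.8 to 80.97%), Igha, Ighg1, Ighg2b and Ighg2c. For Ighe, HFD replicate 4 gave -0.66%, which no share can be.

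**Figure D2:**
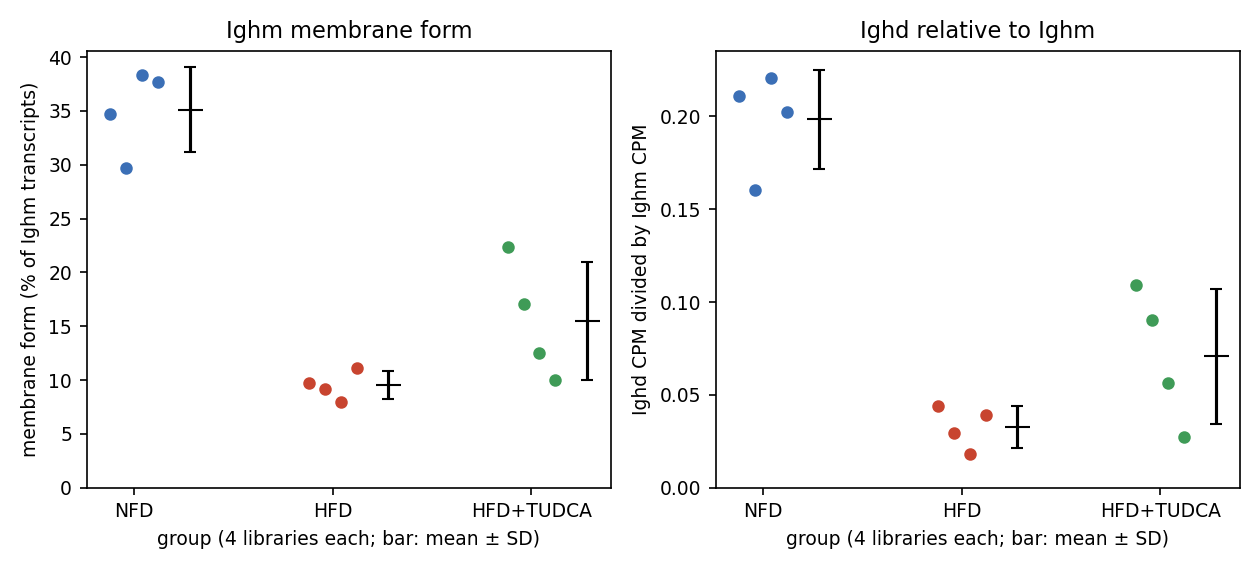
Share of Ighm transcripts in the membrane form, in percent (left), and the ratio of Ighd to Ighm CPM (right), for each library (points), with group mean ± SD (bars, n = 4). All 4 NFD points lie above all 8 high-fat points on both axes, and HFD+TUDCA replicate 4 lies among the HFD points for the ratio and at 10.02% for the membrane form.

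The IgG heavy chains, made after class switching, differed in how far they rose. Ighg2c, whose product takes the place of IgG2a in mouse strains that lack it, held 31.44, 77.88, 22.29 and 14.13 CPM in NFD. It stood at 502.5, 1159, 170.3 and 392.9 CPM in HFD, and at 683.8, 555.8, 169.0 and 19.43 CPM in HFD+TUDCA. The HFD libraries all lay above the NFD libraries, and the log2 fold change was 3.93 ± 0.72 (15.3-fold, edgeR adjusted p = 0.0189). In fits without NFD replicate 1, 3 or 4 or HFD replicate 1, Ighg2c missed the threshold (edgeR adjusted p 0.0535 to 0.0760).

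Ighg1, the class tied in mice to interleukin 4, held 11.54, 12.97, 7.983 and 5.514 CPM in NFD. In HFD it ran from the lowest value of all 12 libraries to the highest, with 497.9, 137.3, 3.412 and 345.3 CPM. HFD+TUDCA libraries held 70.4, 95.45, 115.0 and 4.362 CPM. Its log2 fold change of HFD over NFD, 4.71 ± 1.19, was the largest of the constant genes but missed the threshold (edgeR adjusted p = 0.0644), and it was 5.11 with an adjusted p of 0.00198 without HFD replicate 3.

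Ighg2b, the most abundant IgG chain per length in NFD, held 126.3, 225.0, 181.7 and 151.5 CPM there. HFD libraries stood at 801.7, 1241, 143.9 and 1244 CPM, so that replicate 3 alone lay inside the NFD range. HFD+TUDCA libraries stood at 657.0, 474.8, 477.6 and 30.84 CPM. Its log2 fold change of HFD over NFD was 2.33 ± 0.56 (edgeR adjusted p = 0.0500, just above the threshold), and 2.67 with an adjusted p of 0.00146 without HFD replicate 3. Ighg3, an IgG class often raised against carbohydrate antigens, held 38.36 to 100.4 CPM in NFD, 37.87 to 176.6 in HFD and 6.137 to 208.7 in HFD+TUDCA. Those ranges overlapped throughout (log2 fold change of HFD over NFD 0.61, edgeR adjusted p = 0.554).

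Igha, the IgA heavy chain of mucosal antibody, held 114.4, 158.3, 98.05 and 83.92 CPM in NFD. HFD libraries held 195.2, 477.5, 51.99 and 82.37 CPM, and HFD+TUDCA libraries 357.9, 49.81, 440.9 and 23.23 CPM. Both high-fat groups spanned the NFD range (log2 fold change of HFD over NFD 0.84, edgeR adjusted p = 0.487). Relative to Ighm, Igha was lower in each HFD library (0.105, 0.0498, 0.0287 and 0.00929) than in any NFD library (0.126 to 0.150), with a log2 difference of -1.99 (exact permutation p = 0.0286, adjusted 0.0686). HFD+TUDCA libraries ranged from 0.0116 to 0.146 and overlapped NFD.

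Ighe, the IgE heavy chain of allergic responses, was near the floor in NFD, with 3, 0, 0 and 3 counts. HFD libraries held 434, 52, 0 and 25 counts, and HFD+TUDCA libraries 38, 31, 45 and 0 counts. HFD replicate 1 alone thus held most Ighe counts of the study. The same library held the highest Ighg1 level. Ighe did not pass the low-count filter against NFD. It was tested in HFD+TUDCA against HFD, with a log2 fold change of -2.23 ± 1.49 (edgeR adjusted p = 0.576), which was 0.22 without HFD replicate 1.

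Per length, Ighm was the leading heavy constant gene in all 12 libraries, and the order behind it changed with diet. Ighm made up 57.3, 54.1, 50.9 and 51.1% of heavy constant FPKM in NFD. Its share was 39.3, 67.7, 75.8 and 72.6% in HFD, and 45.1, 68.1, 69.8 and 87.0% in HFD+TUDCA. In each high-fat group replicate 1 alone had a lower Ighm share than the NFD libraries. The IgG genes together filled 52.9% in HFD replicate 1 and 40.8% in HFD+TUDCA replicate 1, against 20.4 to 29.3% in NFD, 19.9 to 25.8% in the other HFD libraries and 7.82 to 25.0% in the other HFD+TUDCA libraries.

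Ighd made up 8.22 to 11.9% of heavy constant FPKM in NFD, 1.42 to 2.75% in HFD and 2.06 to 5.78% in HFD+TUDCA, with no overlap between NFD and either high-fat group. The Ighg3 share was also lower in HFD (1.52 to 2.12%) than in NFD (4.26 to 11.02%), and HFD+TUDCA lay between 0.766 and 5.35%. Ighg2c held 1.52 to 5.25% in NFD, 4.36 to 14.4% in HFD and 2.56 to 17.4% in HFD+TUDCA, ranges that overlapped. These shares are descriptions with no test.

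**Figure D3:**
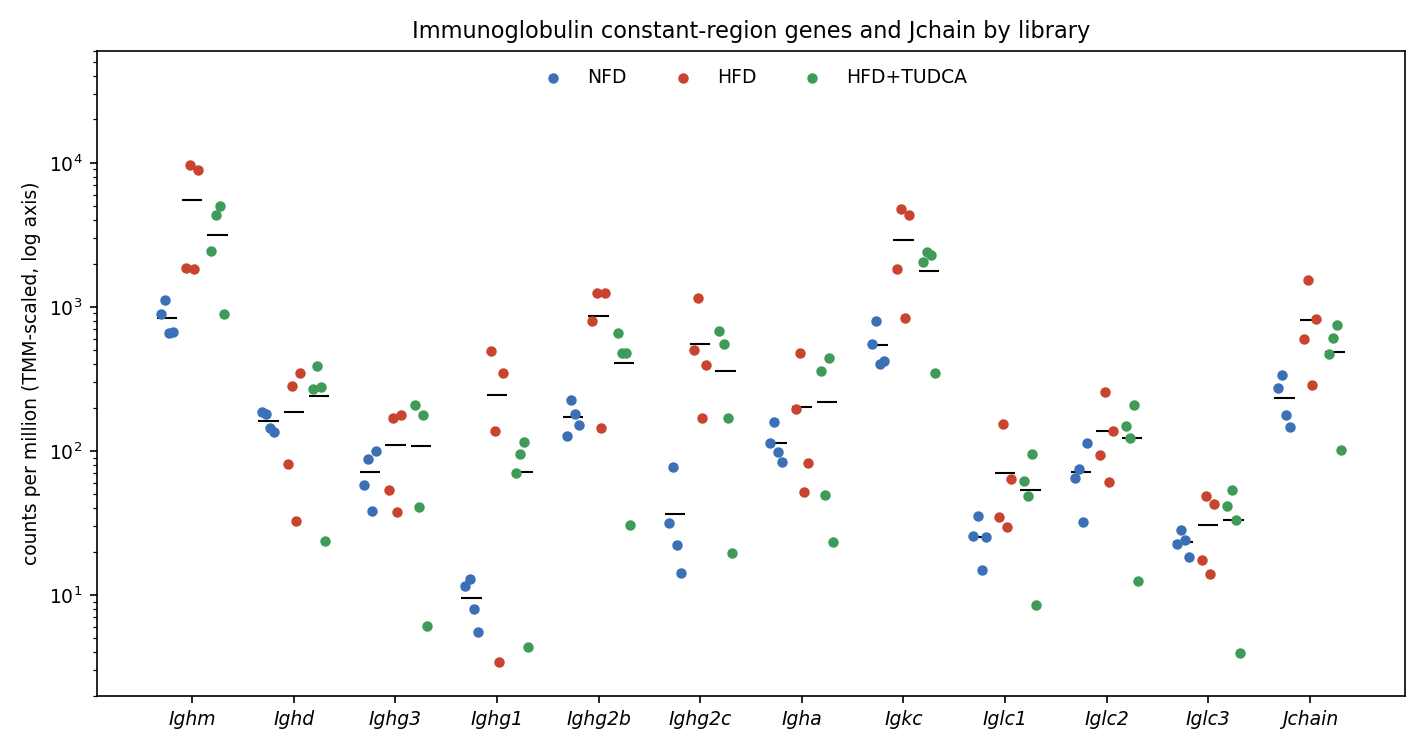
CPM (log axis) of 12 constant-region and J chain genes in each of the 4 libraries of a group (points), with the group mean as a black line. Ighm, Igkc and Ighg2c show no overlap between NFD and HFD, Ighg1 spreads from 3.412 to 497.9 CPM within HFD, and HFD+TUDCA replicate 4 lies lowest in its group for each of the 12 genes.

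Among light chains, Igkc, the kappa constant region found in most mouse antibodies (chromosome 6, 70726435 to 70726966, plus strand), rose. It held 553.2, 797.8, 402.9 and 423.5 CPM in NFD. HFD libraries held 1838, 4749, 834.5 and 4324 CPM, and HFD+TUDCA libraries 2047, 2406, 2297 and 345.7 CPM. Every HFD library lay above every NFD library, replicate 3 by a small margin (834.5 against 797.8 CPM). Igkc differed by a log2 fold change of 2.43 ± 0.52 (5.39-fold, edgeR adjusted p = 0.0334), and it missed the threshold without NFD replicate 1, 2, 3 or 4 or HFD replicate 1 or 4 (log2 fold changes 2.15 to 2.69, edgeR adjusted p 0.0515 to 0.113).

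The lambda constant genes did not pass. Their log2 fold changes of HFD over NFD were 1.48 for Iglc1, 0.94 for Iglc2 and 0.40 for Iglc3 (edgeR adjusted p = 0.139, 0.304 and 0.610), and all 3 overlapped between the groups. Iglc1 ranged from 14.86 to 35.3 CPM in NFD, 29.84 to 154.5 in HFD and 8.572 to 94.92 in HFD+TUDCA. Per length, lambda made up 15.01 to 26.6% of light-chain constant FPKM in NFD, 5.40 to 11.2% in HFD and 6.91 to 12.7% in HFD+TUDCA. The lambda share was thus lower in every high-fat library than in any NFD library, which was not tested.

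Jchain, the joining chain that links IgM and IgA into polymers and is made by plasma cells (chromosome 5, 88519809 to 88527891, minus strand), held 271.3, 337.8, 177.1 and 147.6 CPM in NFD. HFD libraries held 595.0, 1529, 288.0 and 827.2 CPM, and HFD+TUDCA libraries 470.7, 613.0, 747.8 and 101.7 CPM. HFD replicate 3 lay inside the NFD range and the other HFD libraries above it. Its log2 fold change was 1.80 ± 0.48 (edgeR adjusted p = 0.0686), and 2.07 with an adjusted p of 0.0173 without HFD replicate 3.

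Immunoglobulin transcripts were also set against Cd79a, a subunit of the B cell receptor that resting B cells make and plasma cells make less of. Cd79a itself was not called, with a log2 fold change of HFD over NFD of 0.90 and an edgeR adjusted p of 0.429. The ratio of Igkc to Cd79a was 4.27, 5.71, 3.55 and 3.64 in NFD. It was 21.8, 14.1, 15.3 and 9.46 in HFD, and 6.76, 6.36, 7.43 and 13.99 in HFD+TUDCA. Both high-fat groups lay above NFD without overlap, and HFD+TUDCA lay below HFD except for replicate 4.

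The log2 ratio of Igkc to Cd79a was 1.79 higher in HFD than in NFD and 0.96 higher in HFD+TUDCA than in NFD (exact permutation p = 0.0286 and adjusted 0.0686 for each). HFD+TUDCA differed from HFD by -0.83 (exact permutation p = 0.0571, adjusted 0.114). For Jchain to Cd79a, HFD (1.81 to 7.07) overlapped NFD (1.27 to 2.42), with a log2 difference of 1.23 (exact permutation p = 0.0857, adjusted 0.147).

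Among the V genes, kappa and heavy V genes were higher together. Heavy V genes summed to a mean of 132 CPM in NFD, 729 in HFD and 431 in HFD+TUDCA, and kappa V genes to 387, 2042 and 1172 CPM. The median log2 fold change of HFD over NFD was 2.19 over 66 tested heavy V genes, 2.54 over 72 kappa V genes and 1.22 over 3 lambda V genes. By family, 12 of 32 tested Ighv1 genes rose (37.5%, median 2.83), as did 4 of 7 Igkv8 (57.1%), 3 of 4 Igkv12 (75%) and 4 of 17 Igkv4 genes (23.5%). Of all tested immunoglobulin genes 26.8% rose, and of all genes 3.18%. The Igkv4 share was thus not above that of the immunoglobulin genes together. No tested gene of the Ighv2, Ighv4, Ighv5, Ighv6, Ighv7, Ighv8, Ighv10, Ighv11 or Ighv13 families was called. The same held for Igkv2, Igkv5, Igkv9 and Igkv19.

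The V gene with the lowest p was Igkv3-5, at 0.6351, 1.475, 3.263 and 1.733 CPM in NFD. It held 53.81, 35.39, 18.87 and 38.72 CPM in HFD, and 6.94, 15.3, 12.78 and 2.942 CPM in HFD+TUDCA. All HFD libraries lay above all libraries of the other groups. Its log2 fold change of HFD over NFD was 4.38 ± 0.50 (edgeR adjusted p = 0.00253). Its neighbour Igkv3-4 held 0.9037 to 4.629 CPM in NFD, 25.22 to 100.8 in HFD and 6.543 to 67.76 in HFD+TUDCA (log2 fold change of HFD over NFD 4.89 ± 0.60, edgeR adjusted p = 0.00369).

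Igkv12-44 held 2.008 to 4.527 CPM in NFD, 19.0 to 75.16 in HFD and 1.217 to 83.63 in HFD+TUDCA, and its log2 fold change of HFD over NFD was 3.63 ± 0.45 (edgeR adjusted p = 0.00369). Among heavy V genes Ighv1-55 rose by 3.05 ± 0.39 on the log2 scale (edgeR adjusted p = 0.00403), from 2.811 to 5.61 CPM in NFD to 19.94 to 57.18 in HFD. Igkv12-46, Ighv3-6, Ighv1-78, Igkv4-74 and Ighv1-74 completed the 10 V genes with the lowest p beside Ighv1-80, with log2 fold changes of 2.43 to 3.59 and edgeR adjusted p of 0.00954 to 0.0135. Ighv1-74 had NFD counts of 3.1, 13, 4 and 9, below the minimum of 10 except in replicate 2. HFD libraries held 93, 52, 26 and 87.08 counts of it. Ighv1-74 thus passed the low-count filter only through HFD and had to differ, so its p is no separate support. Igkv3-5, Igkv3-4, Igkv12-44, Ighv1-55, Ighv1-80, Igkv12-46 and Ighv3-6 were called in each of the 8 fits that left out 1 library, whereas Ighv1-78, Igkv4-74 and Ighv1-74 missed the threshold without NFD replicate 1 or 3 (Igkv4-74 also without NFD replicate 4), at adjusted p up to 0.0609.

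Igkv4-55, whose sequence is given above, had the largest difference of the V genes named here. It stood at 1.747, 1.577, 2.611 and 2.363 CPM in NFD. HFD libraries held 8.08, 389.5, 30.64 and 250.5 CPM, and HFD+TUDCA libraries 51.92, 123.1, 36.04 and 58.28 CPM. All 8 high-fat libraries lay above NFD, and HFD+TUDCA replicate 4, which was low for most immunoglobulin genes, was not low for this one. HFD over NFD gave a log2 fold change of 6.35 ± 1.23 (edgeR adjusted p = 0.0281). It missed the threshold without NFD replicate 1, 2, 3 or 4 or HFD replicate 4 (edgeR adjusted p 0.0657 to 0.1).

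Ighv1-53 held 1.059, 1.475, 2.159 and 1.943 CPM in NFD. HFD libraries held 15.49, 150.5, 13.85 and 13.27 CPM, and HFD+TUDCA libraries 9.43, 25.6, 20.67 and 16.99 CPM. HFD replicate 2 stood far above the rest, and all high-fat libraries lay above NFD (log2 fold change of HFD over NFD 4.87 ± 0.97, edgeR adjusted p = 0.0278). Ighv1-53 missed the threshold without any single NFD library (edgeR adjusted p 0.0737 to 0.0955).

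Ighv1-80 held 0.4234, 1.17, 1.105 and 0.6827 CPM in NFD, 8.386, 35.67, 9.434 and 61.41 CPM in HFD, and 15.57, 8.47, 8.798 and 5.681 CPM in HFD+TUDCA. It too lay above NFD in all 8 high-fat libraries. HFD over NFD gave a log2 fold change of 5.07 ± 0.74 (edgeR adjusted p = 0.00835).

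The V gene pairs known from mouse natural antibodies were followed singly. Ighv7-1, which with Igkv7-33 forms the T15 antibody to phosphocholine, held 3.546, 8.749, 0.3012 and 3.309 CPM in NFD. HFD libraries held 0.06122, 3.455, 2.542 and 0.4803 CPM and HFD+TUDCA libraries 0.9006, 0.1264, 1.627 and 0 CPM. It overlapped between the groups and was 1 of the 7 tested genes with a negative log2 fold change of HFD over NFD (-1.29 ± 1.03, edgeR adjusted p = 0.532). Igkv7-33 held 0 to 0.7939 CPM in 11 libraries and 5.943 CPM in HFD replicate 4.

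Ighv12-3, which pairs with Igkv4-91 in B-1 cell antibodies to phosphatidylcholine, stood higher in HFD than in NFD. It held 0, 0.4069, 0.05021 and 0.1575 CPM in NFD, 2.02, 6.688, 2.007 and 1.801 CPM in HFD, and 0.9536, 0.5057, 1.024 and 0.7101 CPM in HFD+TUDCA. The groups did not overlap in any pair. The log2 fold change of HFD over NFD was 4.29 ± 0.84 (edgeR adjusted p = 0.0219). Without NFD replicate 1, 3 or 4 Ighv12-3 missed the threshold (edgeR adjusted p 0.0644 to 0.0854). Its NFD counts of 0, 8, 1 and 3 lay below the low-count filter. Ighv12-3 was thus tested only because HFD was high and had to differ, so its p is no separate support. Igkv4-91 stood at 0.4726 to 4.167 CPM in NFD and 5.553 to 23.41 in HFD, with 73.58 and 96.96 CPM in HFD+TUDCA replicates 1 and 3 and 3.224 and 2.638 CPM in replicates 2 and 4. Ighv11-2 and Igkv14-126, which form another antibody to phosphatidylcholine, ranged from 0.4518 to 2.17 and 0.2008 to 1.747 CPM in NFD and from 0 to 12.09 and 1.163 to 3.362 CPM in HFD, ranges that overlapped. Their means were 5.304 and 7.269 CPM in HFD+TUDCA, against 1.175 and 0.9779 CPM in NFD, also with overlap. The log2 fold changes of HFD+TUDCA over NFD were 2.17 ± 0.68 and 2.88 ± 0.87 (edgeR adjusted p = 0.24 and 0.226).

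Lambda V genes stayed within overlapping ranges. Iglv1 held 50.26 to 85.0 CPM in NFD, 66.1 to 364.7 in HFD and 14.86 to 206.0 in HFD+TUDCA (log2 fold change of HFD over NFD 1.31, edgeR adjusted p = 0.168). For Iglv2 and Iglv3 the log2 fold changes were 0.54 and 1.22 (edgeR adjusted p = 0.709 and 0.233). Iglv1 made up 56.5 to 89.8% of lambda V counts in NFD, 71.5 to 85.2% in HFD and 72.8 to 83.6% in HFD+TUDCA.

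The use of V genes was then described as the share of each gene in its library's heavy or kappa V counts, which removes the overall level. Heavy V counts numbered 1864 to 22005 per library and kappa V counts 5742 to 65624, and the widest Wilson 95% interval reached 2.00 percentage points above a leading heavy share and 1.23 above a leading kappa share. Different genes led in different libraries, with 11 distinct leading Ighv genes and 9 distinct leading Igkv genes over 12 libraries. In NFD the leading heavy V genes were Ighv2-3 (10.3%), Ighv1-47 (11.98%), Ighv6-3 (16.1%) and Ighv7-3 (9.17%) in replicates 1 to 4. In HFD they were Ighv1-55 (7.40%), Ighv1-19 (12.9%), Ighv1-9 (9.45%) and Ighv8-8 (12.5%).

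In HFD+TUDCA the leading heavy V genes were Ighv8-12 (24.5%, interval 23.7 to 25.3), Ighv8-8 (15.8%), Ighv1-54 (17.7%) and Ighv14-4 (24.2%, interval 22.3 to 26.2). Every HFD+TUDCA library thus had a leading share above those of all HFD libraries. This did not hold against NFD, where the leading share of replicate 3 (Ighv6-3, 16.15%) lay above that of HFD+TUDCA replicate 2 (15.79%). Ighv8-8 was the only heavy V gene to lead in more than 1 library. Ranked per length by FPKM instead of counts, the leading heavy V gene was another gene in 2 of 12 libraries, HFD replicates 1 and 2 (Ighv1-69 and Ighv1-53), and the leading kappa gene was the same in all 12.

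Kappa V counts were led in NFD by Igkv19-93 (15.8%), Igkv1-110 (14.2%), Igkv2-137 (17.8%) and Igkv1-117 (8.82%). HFD libraries were led by Igkv5-43 (9.04%), Igkv19-93 (14.1% and 12.5% in replicates 2 and 3) and Igkv4-59 (11.5%). HFD+TUDCA libraries were led by Igkv12-46 (18.7%), Igkv1-88 (12.98%), Igkv4-59 (12.05%) and Igkv6-13 (37.5%, interval 36.3 to 38.7). The share of Igkv6-13 in HFD+TUDCA replicate 4 was the largest leading share of the 12 libraries, heavy or kappa, in the library with the fewest immunoglobulin counts, and Igkv4-55 came next in it (19.3%).

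**Figure D4:**
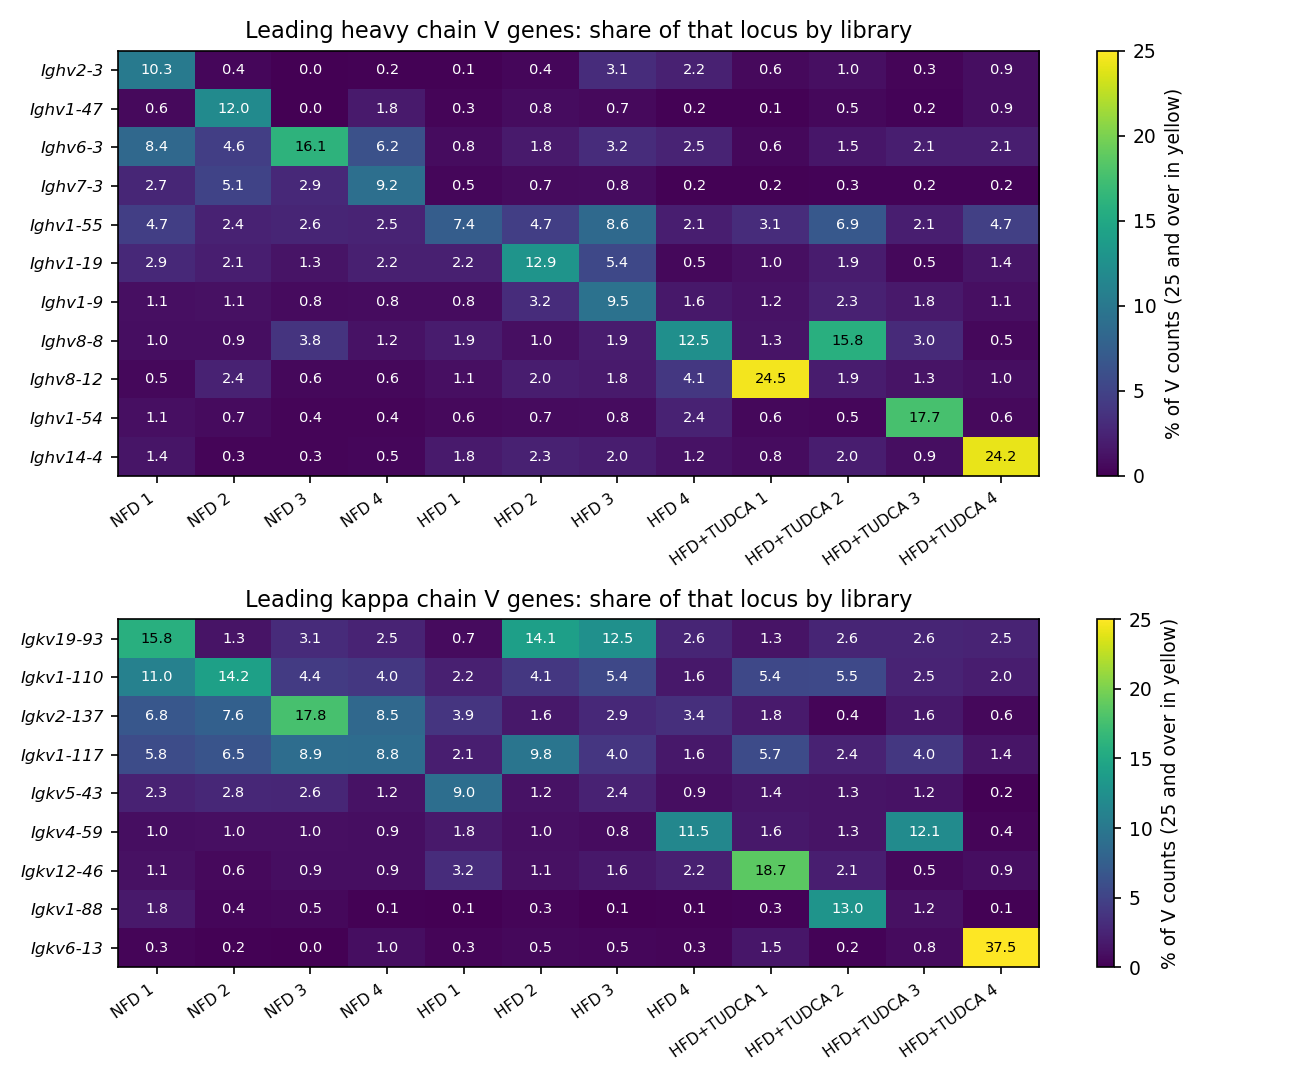
Share of each library's heavy V counts (upper map, 11 leading Ighv genes) or kappa V counts (lower map, 9 leading Igkv genes), in percent, with 1 column per library and a colour scale that ends at 25%. Each leading gene is bright in 1 library or a few, such as Ighv8-12 in HFD+TUDCA replicate 1 (24.5%) and Igkv6-13 in HFD+TUDCA replicate 4 (37.5%).

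Evenness of use was given as the effective number of V genes, the inverse of the sum of squared shares, which equals the number of genes if all had equal shares. For heavy V genes it was 28.9, 28.8, 21.2 and 31.0 in NFD. It was 33.6, 19.9, 26.9 and 23.5 in HFD, and 12.02, 18.5, 16.3 and 9.47 in HFD+TUDCA. All HFD+TUDCA libraries lay below all other libraries, also when shares were taken from FPKM (8.90 to 18.1, against 19.9 to 34.1 in HFD and 20.3 to 30.6 in NFD). This was a description chosen after seeing the values.

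For kappa V genes the effective number was 16.7, 15.1, 16.1 and 25.97 in NFD, 27.0, 16.9, 25.9 and 21.3 in HFD, and 17.5, 19.4, 23.5 and 5.36 in HFD+TUDCA. Here the groups overlapped, and HFD+TUDCA replicate 4 alone stood apart. The number of V counts differed between these libraries, and its part in the effective number was not tested.

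**Figure D5:**
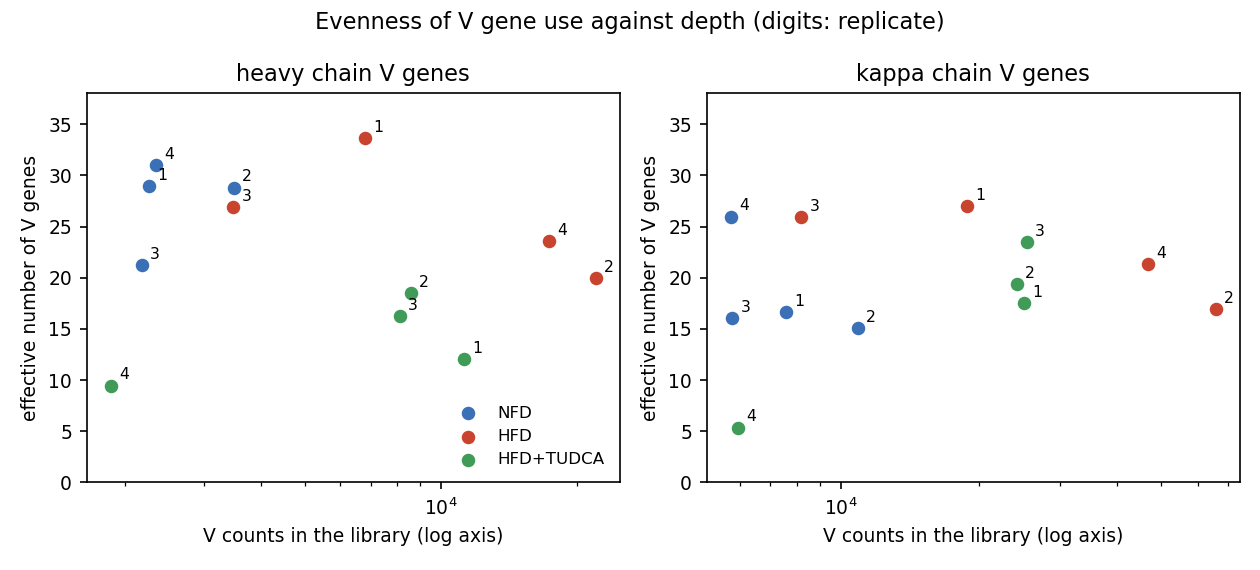
Effective number of V genes (vertical axis) against the library's number of V counts (log horizontal axis) for heavy and kappa V genes, with 1 digit per library giving its replicate number. The 4 HFD+TUDCA libraries lie lowest for heavy V genes (9.47 to 18.5), and HFD+TUDCA replicate 4 lies lowest for kappa V genes (5.36).

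Some V genes took a larger share in every NFD library than in any of the 8 high-fat libraries. Of 188 V genes, 6 did so (3.19%), and 2 had a smaller share in every NFD library (1.06%). These 8 were named after their values were seen. Igkv2-137 held 6.82 to 17.8% of kappa V counts in NFD and 0.360 to 3.89% in the other libraries, and Igkv14-111 held 5.44 to 9.25% against 1.17 to 3.48%. Among heavy V genes the same held for Ighv6-3 (4.595 to 16.1% against 0.551 to 3.19%), Ighv7-3 (2.69 to 9.17% against 0.169 to 0.833%), Ighv1-81 (1.83 to 3.99% against 0.107 to 1.03%) and Ighv5-16 (1.15 to 5.37% against 0.107 to 0.995%). In the other direction, Igkv3-4 held 0.312 to 0.836% in NFD against 1.23 to 6.43%, and Ighv1-80 held 0.353 to 1.01% against 1.56 to 6.01%.

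Shares of several V families also differed between the diets, given here with no test. Ighv7 genes held 5.64 to 11.9% of heavy V counts in NFD, 0.283 to 1.98% in HFD and 0.215 to 0.616% in HFD+TUDCA. Ighv5 genes held 8.70 to 12.5%, 2.67 to 5.22% and 2.79 to 7.73%, and Ighv6 genes 6.40 to 16.6%, 2.24 to 5.20% and 1.18 to 4.12%. The large Ighv1 family held 41.3 to 53.1% in NFD, 56.3 to 70.9% in HFD and 48.1 to 68.3% in HFD+TUDCA, which overlapped NFD. Among kappa families, Igkv2 held 8.12 to 22.3% in NFD, 2.14 to 4.41% in HFD and 0.687 to 2.25% in HFD+TUDCA, while Igkv3 held 2.30 to 5.68%, 7.22 to 17.2% and 6.42 to 12.03%. A lower share is not by itself a lower level. Igkv2-137, with a lower share in every HFD library than in any NFD library, held 27.36, 42.32, 51.56 and 25.58 CPM in NFD and 44.81, 59.91, 15.72 and 95.87 CPM in HFD, levels that overlapped. Ighv7-3 held 3.229, 8.953, 3.163 and 11.29 CPM in NFD, 1.898, 8.527, 1.94 and 1.801 CPM in HFD, and 1.007, 1.517, 1.145 and 0.2029 CPM in HFD+TUDCA, with a log2 fold change of HFD over NFD of -0.90 ± 0.64 (edgeR adjusted p = 0.472). Its level overlapped between NFD and HFD and lay below NFD in all HFD+TUDCA libraries.

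For the effect of TUDCA within the high fat diet, 163 immunoglobulin genes were tested and 0 were called by edgeR, as were 0% of all 14587 genes. An unadjusted p under 0.05 was found for 19 of the 163, against 12% of all genes, and DESeq2, with its own filter, called 3 of 185, all lower, against 2.54% of all genes called and 1.99% lower. The log2 fold change of HFD+TUDCA over HFD was negative for 131 and positive for 32, where 50% of all genes were positive, with a median of -0.77 against 0.00 over all genes. The libraries did not overlap for 5 genes, all lower in HFD+TUDCA (Igkv3-5, Ighv1-74, Ighv1-78, Ighv12-3 and Ighv7-3), against 4.8% of all genes. Those 5 were named for this after their values were seen.

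Log2 fold changes of HFD+TUDCA over HFD were -0.77 ± 0.68 for Ighm, -0.69 ± 0.65 for Igkc, -0.72 ± 0.61 for Jchain, -1.77 ± 1.19 for Ighg1, -1.03 ± 0.83 for Ighg2b and -0.62 ± 0.90 for Ighg2c. Their edgeR adjusted p ran from 0.577 to 0.814. For all 6 genes the 4 HFD+TUDCA libraries overlapped the HFD libraries, and a p above the threshold does not show that the groups were alike. No fit that left out 1 library called any immunoglobulin gene.

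HFD+TUDCA against NFD shares the NFD libraries with HFD against NFD, so the values stand side by side and are not independent. Of 150 genes tested, 3 rose and 0 fell in edgeR (2%), against 0.194% of all 14942 genes called, 0.1% higher and 0.0937% lower. The log2 fold changes of HFD+TUDCA over NFD were 5.01 ± 0.43 for Igkv4-55 (edgeR adjusted p = 0.00337), 3.45 ± 0.36 for Ighv1-53 (0.00971) and 3.50 ± 0.43 for Ighv1-80 (0.0152). Their values in HFD over NFD were 6.35, 4.87 and 5.07. DESeq2 called 36 of 191 immunoglobulin genes, against 3.35% of all genes, and 60 had an unadjusted edgeR p under 0.05, against 11.5%. The log2 fold change was positive for 132 and negative for 18, where 50.7% of all genes were positive. The libraries did not overlap for 9 genes higher and 2 lower (Ighv7-3 and Igkv2-137), against 3.92% and 3.45% of all genes.

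HFD+TUDCA replicate 4 decided much of this comparison. Without it, 50 immunoglobulin genes were called, 49 of them higher, and 682 of all genes. The fit with all libraries called 3 immunoglobulin genes and 29 of all genes. Calls thus increased over the whole table and not only among immunoglobulin genes, and these are counts, not shares of the genes tested. With all libraries, Ighm stood 1.92 ± 0.48 above NFD on the log2 scale (edgeR adjusted p = 0.162) and 2.22 without replicate 4 (adjusted p = 0.00435), and Igkc 1.70 ± 0.53 (edgeR adjusted p = 0.236) and 2.03 (adjusted p = 0.00309). The log2 fold changes of HFD+TUDCA over NFD were 2.91 for Ighg1, 3.29 for Ighg2c, 1.26 for Ighg2b and 1.05 for Jchain, at edgeR adjusted p of 0.195 to 0.573. Without replicate 4, Ighg1 (3.28, adjusted p = 0.00257), Ighg2b (1.63, 0.00474) and Jchain (1.37, 0.0381) passed the edgeR threshold, while Ighg2c passed in no fit that left out 1 library. Without NFD replicate 1 or 2, 1 gene was called. Ighv1-53 then missed the threshold (adjusted p 0.0503 and 0.0536), as did Ighv1-80 without any single NFD library or HFD+TUDCA replicate 2 (edgeR adjusted p 0.0569 to 0.0775).

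Genes of the cells that make and bind antibody were counted in lists, HFD against NFD. For every list the shares over all genes were 3.18% higher and 1.64% lower in edgeR. An unadjusted edgeR p under 0.05 was found for 21% of all genes, and DESeq2 called 10.3%. None of 16 measured B cell markers was called by edgeR (1 at an unadjusted p under 0.05, 1 by DESeq2), with a median log2 fold change of 0.76. Ms4a1, which encodes CD20, stood at 0.42 (edgeR adjusted p = 0.629). Of 14 plasma cell genes 4 rose in edgeR and 10 in DESeq2, with a median of 0.93. Those were Creld2, a chaperone of the endoplasmic reticulum (1.39, edgeR adjusted p = 0.00246), Fkbp11, a folding enzyme of secretory cells (1.35, 0.0349), Prdm1, the regulator of plasma cell fate (1.52, 0.0401), and Ell2, an elongation factor that in plasma cells favours the secreted heavy-chain form (1.00, 0.0164). Sdc1, the plasma cell surface proteoglycan, did not pass (0.61, edgeR adjusted p = 0.0551). Creld2 was called in all 8 fits that left out 1 library. Ell2 missed the threshold without NFD replicate 1, 3 or 4 (edgeR adjusted p up to 0.0648). Fkbp11 missed it without any single NFD library or HFD replicate 1 or 4 (edgeR adjusted p up to 0.121). For Prdm1 this held without any single NFD library or HFD replicate 2 or 4 (edgeR adjusted p up to 0.131). These genes did not all follow the immunoglobulin sums. In HFD+TUDCA replicate 4, where the sum was lowest, Ell2 was highest of its group (34.64 CPM against 12.66 to 16.37). Creld2, Fkbp11, Prdm1 and Sdc1 were lowest there. In HFD, Fkbp11 was lowest in replicate 2, where the sum was highest. Sdc1 was highest in replicate 3, where the sum was lowest, and Prdm1 and Ell2 were lowest there.

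Receptors for the Fc part of antibody stood higher in HFD. In the list of immunoglobulin receptors and transport genes 5 of 13 tested rose and 0 fell. These were the activating receptors Fcgr1 (log2 fold change 2.47), Fcgr3 (1.89) and Fcgr4 (3.72), their signalling subunit Fcer1g (1.61) and the inhibitory receptor Fcgr2b (1.89), at edgeR adjusted p of 0.00401 to 0.0116. All but Fcgr2b, which missed the threshold without NFD replicate 1 or 3 (edgeR adjusted p 0.0524 and 0.0535), were called in each fit that left out 1 library. Macrophage markers, cells that carry these receptors, moved with them. Of 7, 6 rose, and their summed level was 2070 to 3523 CPM in NFD, 5440 to 5998 in HFD and 1258 to 3982 in HFD+TUDCA, and their part in the result was not tested.

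Among genes of B cell help and survival 2 of 11 tested rose, Tnfsf13b, the survival factor BAFF (0.90, edgeR adjusted p = 0.0372), and Il6, a cytokine that promotes plasma cells. Il6 was at 0, 0.153, 0 and 0 CPM in NFD and at 8.33, 3.90, 3.68 and 46.4 CPM in HFD (edgeR adjusted p = 0.0119). It passed the low-count filter only through HFD and so had to differ. In the list of B-1 and marginal zone cell genes 1 of 10 rose, Plac8 (1.74, edgeR adjusted p = 0.0164). None of 10 tested recombination and switching genes was called by edgeR (1 at an unadjusted p under 0.05, 1 by DESeq2). In the lymphoid tissue list 1 of 14 rose (Fcgr2b) and 1 fell, Chst4, a sulfotransferase of lymph node venules, by 1.198 on the log2 scale (edgeR adjusted p = 0.0342). Each of these calls was lost in some fits without 1 library, for Il6 without NFD replicate 1, 2 or 3, for Plac8 without NFD replicate 1, 3 or 4, for Chst4 without any single NFD library, and for Tnfsf13b without any single NFD library or HFD replicate 1 or 2 (edgeR adjusted p 0.0524 to 0.116). In HFD+TUDCA, edgeR called 0 of the 120 tested genes of all lists, cell markers included, against HFD and 0 against NFD. Against HFD, 25 had an unadjusted edgeR p under 0.05, where 12% of all genes did. DESeq2 called 13 lower there, where 1.99% of all genes were. Against NFD, 15 had an unadjusted edgeR p under 0.05, near the 11.5% of all genes. DESeq2 called 3 higher and 3 lower there, where 3.35% of all genes were called. The 5 Fc receptor list genes that DESeq2 called against HFD were all lower in HFD+TUDCA.

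Markers of other cells varied between the libraries that set the immunoglobulin levels. Summed B cell markers held 604 to 826 CPM in NFD, 289 to 2381 in HFD and 154 to 1904 in HFD+TUDCA. Cd79a was lowest in HFD replicate 3 (54.1 CPM) and HFD+TUDCA replicate 4 (24.2 CPM), the libraries with the lowest immunoglobulin sums of their groups, against 113 to 139 CPM in NFD. Summed T cell markers ranged from 334 to 459 CPM in NFD, 118 to 569 in HFD and 47.0 to 433 in HFD+TUDCA, with 0 of 12 called in HFD against NFD by edgeR or DESeq2, and thymocyte markers had 0 of 6 tested called by either, with 0 of both lists at an unadjusted p under 0.05. Smooth muscle markers, which define the aortic media, summed to 2837 to 3751, 1771 to 3214 and 2341 to 5193 CPM, so markers of the labelled tissue were present in all groups, and 1 of 6 fell in HFD. Erythroid genes of blood summed to 1866 to 5078, 2941 to 15070 and 1338 to 5617 CPM, with 0 of 6 tested called by edgeR or DESeq2 and 1 at an unadjusted p under 0.05. No gene of these lists was at 0 in all libraries, and the part of these cells in the immunoglobulin levels was not tested.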

How the data were processed

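Bulk oligo(dT)-selected RNA of aorta was sequenced in 12 libraries, grouped by their sample titles. The authors deposited expected counts and FPKM values per gene, per the file headers. Build GRCm38 and DESeq2 come from the submitters' processing notes; for the aligner, the counter and the annotation release, nothing is given in the sources used here. Gene positions and sequences come from GENCODE M21 on GRCm38, which matched all 201 members.

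Expected counts were rounded and tested pairwise over the whole table with edgeR 4.0.16 (R 4.3.3) quasi-likelihood F tests after TMM scaling and filterByExpr (minimum count 10, minimum total 15). P-values were adjusted over all tested genes by Benjamini-Hochberg, with calls at 0.05. Each SE was obtained by dividing the log2 fold change by the root of its F statistic. CPM values are TMM-scaled. Ratios used CPM plus 0.5, and 2-sided exact tests over 70 permutations (scipy 1.17.1). Shares of V counts have Wilson 95% intervals, for counting error only. The fits were tested on simulated data. Totals were 15199312 to 22061687 counts.

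The members, lists and tests were chosen with earlier results of these data known. Named were constant genes and Jchain, the 5 most abundant Ighv and Igkv genes, all Iglv genes, each library's leading V genes, up to 10 called V genes per comparison and direction with the lowest p, 3 natural-antibody pairs, and up to 4 genes per marker list with the lowest p, beside Ms4a1, Cd79a, Sdc1 and Prdm1; some list genes are not reported here. Other V genes are named only where stated. Alternatives were DESeq2 1.42.0 with its own size factors, edgeR with RLE scaling, scaling without immunoglobulin genes, no filter, 1 fit of all 12 libraries, a replicate block, a pseudocount of 0.1, other count minimums, and leaving out each library.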

Additional observations from a re-analysis of the deposited data

Results flagged for a closer look

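In groups of 4 libraries, 183 measures (the named immunoglobulin genes in each group and the ratios and effective numbers) were searched for a library far from the other 3. A library was taken as far when its gap to the nearest other, relative to the group's whole range, exceeded Dixon's 95% critical value. It was exceeded 28 times, 8 of them in HFD replicate 2. Chance flags about 1 in 20 groups, but that rate does not hold here, since 22 of the 28 concern genes that were named for leading a library's V counts, 14 of them in that same library. No cause was tested for any of them.

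HFD replicate 2 stood high for Ighv1-19 (158.2 CPM against 5.643 to 12.51 in the other HFD libraries), Ighv1-53 (150.5 against 13.27 to 15.49), Ighv1-47 (9.753 against 1.224 to 1.561) and Ighv12-3 (6.688 against 1.801 to 2.02). It also stood high for Ighv7-3 (8.527 CPM against 1.801 to 1.94), Igkv1-110 (148.9 against 25.77 to 44.66), Igkv1-117 (356.7 against 21.81 to 44.9) and Igkv19-93 (514.7 against 8.325 to 71.92). HFD replicate 4 stood high for Ighv8-8 (129.6 CPM), Igkv4-59 (324.4 CPM) and Igkv7-33 (5.943 CPM, against 0 to 0.2229 in the others). HFD replicate 1 held 26.57 CPM of Ighe, against 0 to 2.898 in the others.

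In HFD+TUDCA, replicate 1 stood high for Ighv8-12 (146.3 CPM) and Igkv12-46 (249.0 CPM), replicate 2 for Ighv8-8 (85.78 CPM) and Igkv1-88 (198.2 CPM), and replicate 3 for Ighv1-54 (86.72 CPM) and Igkv4-59 (184.3 CPM). Replicate 4 was high for Igkv6-13 (113.5 CPM against 3.793 to 20.55) and low for Igkv5-43 (0.5579 CPM against 18.65 to 19.47). Its ratio of Igkc to Cd79a was 13.99, against 6.362 to 7.429 in the others.

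In NFD, replicate 1 stood high for Ighv2-3 (12.39 CPM), Ighv14-4 (1.694 CPM) and Igkv19-93 (63.46 CPM against 7.071 to 8.886). Replicate 2 was high for Ighv1-47 (21.21 CPM against 0.05021 to 2.206) and Ighv8-12 (4.222 CPM), and replicate 3 for Ighv8-8 (4.117 CPM). The effective number of kappa V genes was 25.97 in NFD replicate 4, against 15.06 to 16.66 in the others. Igkv19-93, Igkv4-59, Ighv1-47 and Ighv8-12 each stood out in a different library of 2 groups, and Ighv8-8 in 1 library of each group.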

How the results depend on the processing

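The number of immunoglobulin genes called in HFD against NFD, 41 by edgeR, was 90 with DESeq2, 23 in 1 fit of all 12 libraries and 7 to 77 with 1 library left out, and 33 to 38 in the other fits. In HFD+TUDCA against HFD it was 0, and 3 with DESeq2. In HFD+TUDCA against NFD it was 3, with 36 in DESeq2, 0 in 1 fit of all 12 libraries and 1 to 50 with 1 library left out. Depth limits the V genes near the filter, and 153 of 201 genes could be tested in HFD against NFD.

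The labels do not say that replicate numbers mark a shared source, and the numbers were not taken to pair the libraries, since correlations of same-numbered deviations were 0.093, 0.39, 0.223 and 0.265 in HFD and NFD, not all over 0.1, and below 0 in both other pairs. With the replicate block, 38 genes were called in HFD against NFD, 28 of them shared with the unblocked fit, and 2 in HFD+TUDCA against NFD. The 13 lost in HFD against NFD included Ighm (edgeR adjusted p = 0.0605) and Igkv4-55 (0.0754), Jchain (0.0458) was among 10 gained, and Ighv1-80 (0.207) was the 1 lost in HFD+TUDCA against NFD. The Ighd log2 fold change of HFD over NFD turned to -0.31 with the block. The block cannot change the Ighm membrane-form differences, -25.6 and -19.6 points for HFD and HFD+TUDCA against NFD. The mean of matched differences equals the difference of the group means, and the block's exact p cannot go below 0.125. With 1 library left out the differences ranged from -27.4 to -24.5 and from -21.9 to -17.8 points. There the exact p cannot go below 0.0571. These alternatives for the membrane form were chosen after seeing the data.

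Some directions depended on 1 library, and the cause was not tested. Without HFD replicate 2, the log2 fold changes of HFD over NFD were -0.026 for Igha (leave-one-out range -0.026 to 1.13) and -0.07 for Ighd (-0.32 to 0.55, the lowest without HFD replicate 4), and Ighg2c in HFD+TUDCA over HFD was 0.021 (-1.15 to 0.021). Ighe in HFD+TUDCA over HFD was 0.216 without HFD replicate 1 (-2.63 to 0.216). The Igha to Ighm ratio in HFD+TUDCA against HFD was -0.19 without HFD+TUDCA replicate 1 and -0.25 without HFD replicate 4 (range -0.25 to 1.02). The other 11 ratio comparisons kept their direction under each alternative run, though the replicate block cannot change a direction. None passed the adjusted threshold. With 1 library left out or with the block none could, since the exact p cannot go below 0.0571 or 0.125. A count minimum of 10 or 100 in place of 20 gave 205 or 176 genes.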
